A study of Mus musculus with 8 samples.

Results

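The effect of vismodegib, a drug that inhibits the Hedgehog transducer Smoothened, was examined in the Lgr5-negative, Lrig1-positive cells of mouse basal cell carcinoma. Of the 8 arrays of the series, 4 were of these cells, from 2 vismodegib-treated mice and 2 untreated mice, with 1 array per mouse. All probe sets that name 1 gene entered the comparison, with the brightest probe set standing for a gene, so that 14403 of 17097 genes were tested and 2694 were too dim. All mice, the untreated ones included, were K14-CreER/Ptch1cKO, so each carried a conditional deletion of Ptch1 under a tamoxifen-inducible Cre that is driven by the keratin 14 promoter of basal keratinocytes. Back skin that bore basal cell carcinomas or drug-tolerant lesions was split with thermolysin, and the epidermal side was used. Live single cells were sorted by an Lrig1 antibody and by the GFP reporter at the endogenous Lgr5 locus into the populations labelled Lrg5-Lrig1+ and Lgr5+Lrig1+. The labels give neither the dose and length of treatment nor the age, sex and strain of the mice, and they name no marker that removes leukocytes. The deleted Ptch1 exons are not named either, so Ptch1 signal is no check of the deletion. Levels are log2 values from the robust multi-array average (RMA), and each change is vismodegib minus untreated in log2, ± the standard error from limma.

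Basal cell carcinoma arises when the Hedgehog pathway is constantly on in follicle or epidermal keratinocytes. Ptch1, the receptor, normally holds Smoothened in check, and Smoothened in turn activates the Gli transcription factors, which induce Gli1, Ptch1 and Hhip as feedback. Lgr5 is a co-receptor for R-spondins that marks cycling hair follicle stem cells, and Lrig1, which restrains ErbB receptors, marks progenitors of the upper follicle.

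The sort could be checked on its own markers. Lgr5 stood at 5.46 and 4.83 in the vismodegib Lgr5-negative arrays, against 8.52 and 8.40 in the untreated ones. It stood at 9.44 and 10.03 in the vismodegib Lgr5-positive arrays, against 10.98 and 11.00 in the untreated ones. The untreated cells sorted as Lgr5-negative thus had a clear Lgr5 signal, below that of their Lgr5-positive partners, and only after vismodegib did it lie under the array median, which was 6.13 to 6.17 in the Lgr5-negative arrays. Lrig1 stood at 10.95 and 11.38 with vismodegib and at 10.84 and 10.63 without (0.43 ± 0.17, adjusted p = 0.22). The basal keratins were as high with the drug as without: Krt5 at 12.71 and 12.88 against 12.76 and 12.82, and Krt14 at 12.53 and 12.53 against 12.58 and 12.67. Replicate arrays correlated across genes at 0.981 with vismodegib and 0.992 untreated. The 3′ minus 5′ signal of control probe sets, a sign of RNA quality, moved with treatment: for actin it was −0.49 and −0.50 with vismodegib, against −0.34 and −0.37 untreated, and for Gapdh −0.23 and −0.14 against −0.12 and −0.10. Its part in the results was not tested.

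Vismodegib changed 478 genes in the Lgr5-negative cells at an adjusted p under 0.05, which is 3.32% of those tested. Of these, 181 rose (1.26%) and 297 fell (2.06%), and 262 (1.82%) changed at least 2-fold. Counts for the gene lists below stand against these shares, and the lists were chosen with earlier results of these data known. At least 4-fold changes were found in 10 of the genes that rose and 37 of those that fell. The 2 vismodegib arrays did not overlap the 2 untreated arrays for any of the 478, but that held for 51.4% of all tested genes too, 26.5% higher and 24.9% lower with the drug. The fit without untreated array 2 made 65 calls, without untreated array 1 it made 137 and without vismodegib array 2 it made 257, of which 128 were higher and 129 lower, so the excess of decreases rests on that array. In cells sorted in bulk, fewer cells of a type and less RNA per cell cannot be told apart.

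Keratin 77, a keratin of suprabasal cells and sweat ducts, rose most. Krt77 stood at 11.64 and 11.55 with vismodegib and at 7.60 and 6.41 without, a 24.1-fold change (4.59 ± 0.41, adjusted p = 0.00304). The treated arrays lay close together and the untreated ones apart. Thbs2, a matricellular inhibitor of angiogenesis, stood at 9.16 and 10.71 against 6.36 and 5.99 (3.76 ± 0.53, adjusted p = 0.0144). Rgs4, which switches off G protein signals, stood at 10.76 and 10.53 against 7.52 and 6.80 (3.49 ± 0.42, adjusted p = 0.00796). For both genes the lowest treated array lay more than 2 log2 units above the highest untreated one. The other 12 of the 15 largest increases lay between 1.91 and 2.74. They included the cysteine protease inhibitor Cst6 (2.35 ± 0.35), the ion transport kinase Stk39 (2.18 ± 0.22), the complement inhibitor Cd55 (2.14 ± 0.11), the BDNF receptor Ntrk2 (2.14 ± 0.15), the prostaglandin D synthase Hpgds (2.09 ± 0.18), the ADP-ribosyltransferase Parp10 (1.94 ± 0.30), the phosphatase Dusp26 (1.94 ± 0.34), Sectm1b (1.93 ± 0.15) and the sterol enzyme Hsd3b7 (1.91 ± 0.24). The 7 Ntrk2 probe sets ranged from 0.09 to 3.56. Of the genes named here, Rgs4, Thbs2, Cst6, Parp10, Dusp26 and Hsd3b7, and also Cxcl9, did not pass without untreated array 2.

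The 15 largest decreases held Wnt, Hedgehog, hair and cornified envelope genes. Wif1, a secreted Wnt inhibitor of the bulge, stood at 5.57 and 5.86 with vismodegib and at 9.32 and 9.16 without, 11.5-fold lower (−3.53 ± 0.20, adjusted p = 0.00055). Krtap17-1, a keratin-associated protein of the hair shaft, stood at 4.95 and 4.93 against 8.59 and 7.89 (−3.30 ± 0.25, adjusted p = 0.00166). The pseudokinase gene Trib2 stood at 5.11 and 5.26 against 7.91 and 7.94 (−2.74 ± 0.11, adjusted p = 0.000249). In all 3 the treated arrays lay under the array median and the untreated arrays well above it. Dio2, which activates thyroid hormone (−2.91 ± 0.21), the retinoic acid enzyme Aldh1a3 (−2.91 ± 0.15), the fibrillar collagen Col27a1 (−2.91 ± 0.29), the cationic amino acid transporter Slc7a2 (−3.01 ± 0.28), the adhesion molecule Ncam1 (−3.04 ± 0.53) and tissue factor (F3, −2.63 ± 0.46), which starts blood clotting, fell as well. Ncam1 is the least certain, since its 6 probe sets ranged from −3.59 to −0.05, and neither Ncam1 nor F3 passed without untreated array 2.

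**Figure D1:**
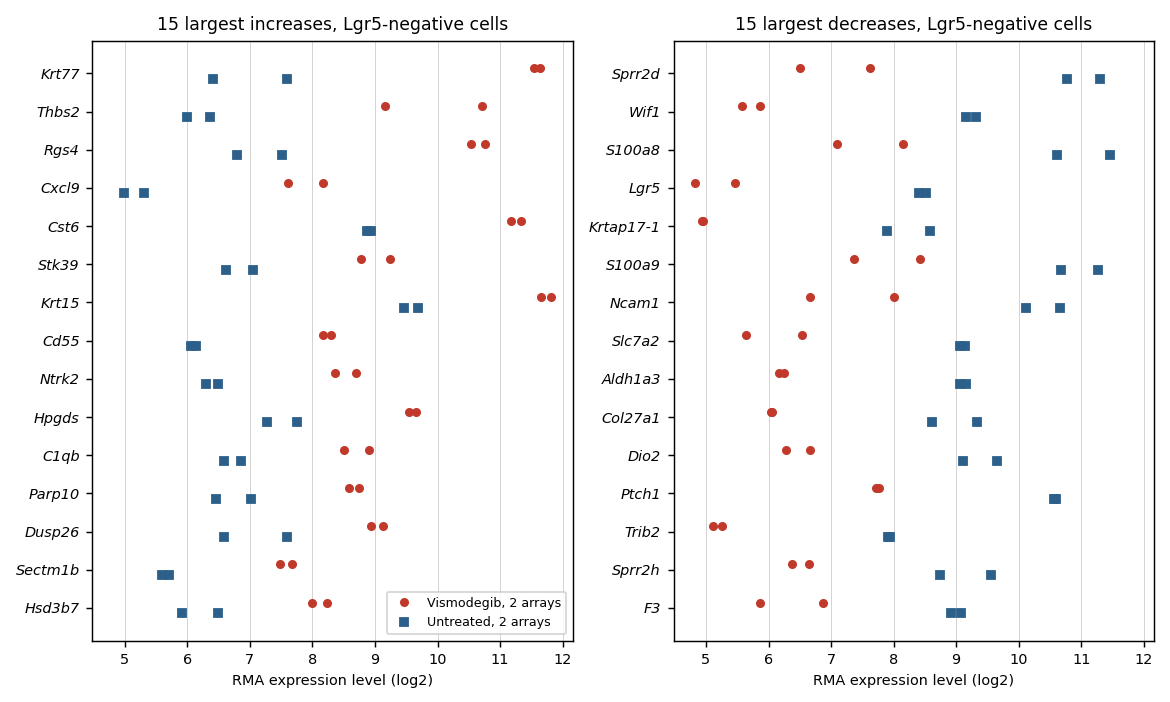
RMA levels (log2, x axis) of the 15 genes with the largest increase and the 15 with the largest decrease past the threshold in Lgr5-negative cells, with red circles for the 2 vismodegib arrays and blue squares for the 2 untreated arrays. The groups do not overlap for any of the 30 genes, and Krt77 has the largest mean change among the increases and Sprr2d among the decreases.

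The Hedgehog readout fell. Gli1, the transcription factor that is itself a pathway target, stood at 6.56 and 6.37 with vismodegib and at 9.05 and 8.75 without, 5.41-fold lower (−2.44 ± 0.17, adjusted p = 0.00166). Ptch1 stood at 7.72 and 7.77 against 10.56 and 10.60 (−2.84 ± 0.22, adjusted p = 0.00167), and its other probe set gave −1.23. For both genes the gap between the groups was far wider than that between replicate arrays. The ligand-binding antagonist Hhip stood at 5.08 and 5.69 against 7.71 and 7.10 (−2.02 ± 0.36, adjusted p = 0.0326). The activator Gli2 (−0.93 ± 0.13) and the ligand co-receptor Gas1 (−1.25 ± 0.23) fell too, while the cyclin gene Ccnd2 rose (1.23 ± 0.21). Of 19 tested pathway members, 1 rose (1.26% over all genes), 5 fell (2.06%) and 13 did not pass, with a median of −0.13 against 0 over all genes. Those that did not pass include the transducer Smo (11.33 and 11.58 against 11.45 and 11.21), the inhibitor Sufu (−0.07) and the target Mycn (−0.61 ± 0.14, adjusted p = 0.0669). Without untreated array 1 only 2 of the 5 decreases passed and Ccnd2 did not, and the Hhip call was lost on averaging its probe sets. The letters GACCACCCA, a core GLI motif, occur on either strand in 0.253% of all 300-base promoter windows, and no match was found in those of Ptch1, Hhip and Gli2.

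Follicle stem cell and bud genes moved in both directions. Lgr5 fell 9.94-fold (−3.31 ± 0.25, adjusted p = 0.00166), but the cells were sorted on a reporter at its locus, so its level is not independent of the gate. Lhx2, a transcription factor that maintains follicle stem cells, stood at 6.63 and 6.35 with vismodegib and at 8.58 and 8.37 without (−1.98 ± 0.18, adjusted p = 0.00306). The bulge and basal keratin Krt15 went the other way, at 11.65 and 11.81 against 9.68 and 9.47, 4.44-fold higher (2.15 ± 0.17, adjusted p = 0.00185). The 2 treated arrays of Krt15 lay close together, far above both untreated ones. Of 19 bulge and outer root sheath genes, 1 rose and 5 fell (median −0.05), and of 17 embryonic follicle genes 1 rose and 3 fell (median −0.05), with Lgr5 and Lhx2 in both lists. Over all genes 1.26% rose and 2.06% fell, and the Lgr5 call in both lists carries the limit of the sort. The riser among embryonic follicle genes was the activin antagonist Fst (1.10 ± 0.18). Without vismodegib array 1, 3 of the 5 bulge decreases passed, and without untreated array 1 only 2 of the 4 embryonic calls did.

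Calls among Wnt genes numbered 1 of 23 ligands and Frizzled receptors, 2 of 11 secreted inhibitors and 2 of 17 targets, against 3.32% of all genes. The ligand Wnt5a stood at 5.98 and 5.80 with vismodegib and at 7.73 and 7.77 without (−1.86 ± 0.22, adjusted p = 0.00691). Besides Wif1, the Wnt inhibitor relative Dkk3 fell (−1.10 ± 0.22). Among targets Lgr5, on whose reporter the cells were sorted, fell and the TNF receptor family member Tnfrsf19 rose (1.21 ± 0.15). In the BMP and TGF-beta list of 23, the activin subunit Inhba (−1.80 ± 0.29) and the ligand Tgfb3 (−1.46 ± 0.21) fell and Fst rose. The second Inhba probe set gave −0.07, and the mean of both −0.93. In the Notch list, the receptor Notch3 rose (1.08 ± 0.19) and was the 1 call among 16. Of 17 genes induced by ERK or of its ETS arm, Spry4, which dampens receptor signals (−1.28 ± 0.15), and the transcription factor Etv4 (−1.18 ± 0.19) fell, and the 4 Spry4 probe sets ranged from −1.28 to 0.03, with a mean effect of −0.49. Axon guidance genes gave 2 decreases of 24, the co-receptor Nrp2 (−1.62 ± 0.17) and the Slit receptor Robo1 (−1.13 ± 0.21). The calls of Nrp2, Robo1, Wnt5a, Dkk3, Notch3, Spry4 and Etv4 were lost without untreated array 2. Those of Inhba, Tgfb3 and Fst were lost on leaving out either untreated array.

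Genes that keratinocytes switch on in wounds and in hyperproliferative skin had the lowest median of the 53 lists examined. Of 16 wound keratins and alarmins tested, 8 fell (2.06% over all genes) and none rose (1.26% over all genes), with a median of −2.13. Sprr2d, which encodes a small proline-rich precursor of the cornified envelope, stood at 7.63 and 6.51 with vismodegib and at 10.77 and 11.30 without, 15.6-fold lower (−3.96 ± 0.41, adjusted p = 0.00473). Its relative Sprr2h stood at 6.64 and 6.37 against 8.75 and 9.55 (−2.64 ± 0.31, adjusted p = 0.00779), and Sprr2f at 4.34 and 4.30 against 6.31 and 7.31 (−2.49 ± 0.29, adjusted p = 0.00682). In each of the 3 the drop between groups was larger than the distance between replicate arrays. Sprr2f, which is among the 8, lay above the 4.85 set for dim genes only in the untreated Lgr5-negative arrays, so it was tested through them alone. Sprr1b, another envelope precursor, stood at 7.31 and 6.57 against 8.96 and 9.59 (−2.33 ± 0.37, adjusted p = 0.0217). Sprr genes are close paralogs, so hybridisation may not wholly separate them.

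Krt16, the keratin of activated epidermis, stood at 9.49 and 9.23 with vismodegib and at 11.11 and 11.47 without (−1.93 ± 0.17, adjusted p = 0.00286). The alarmin S100a8 stood at 8.15 and 7.09 against 10.62 and 11.46, 10.7-fold lower (−3.42 ± 0.64, adjusted p = 0.0383). Its partner S100a9 stood at 8.42 and 7.36 against 10.68 and 11.27 (−3.08 ± 0.51, adjusted p = 0.0259). Replicates of the alarmins lay further apart than those of Krt16, but the groups did not overlap. The partner keratin Krt6b (−2.50 ± 0.65, adjusted p = 0.0902) and the antimicrobial peptide Defb3 (−2.65 ± 0.83, adjusted p = 0.145) were lower in both treated arrays without passing, and Defb3 differed by over 3 log2 units between the untreated arrays, at 6.92 and 10.06. The alarm cytokine Il33 stood at −0.95 ± 0.26. S100a8 and S100a9 are also neutrophil genes. They were the only 2 calls among 7 neutrophil and mast cell markers, of which the cathelicidin Camp (6.12 and 6.39 against 5.96 and 6.17), myeloperoxidase (Mpo, 5.72 and 5.37 against 5.41 and 5.44) and the G-CSF receptor Csf3r (4.76 and 4.89 against 4.66 and 4.80) did not pass. Most of the 8 wound calls were lost without untreated array 2. Krt16 and Sprr2f kept the call under every alternative, but Sprr2f was tested only through the untreated Lgr5-negative arrays, where it was high.

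The promoter windows of the 4 Sprr genes that fell were read. They run from 250 bases before to 50 bases after the gene start, in the direction of transcription, from RefSeq on GRCm38.p6, and 364 of the 478 called genes had such a window. They are shown because these genes fell together and neighbour each other on chromosome 3. Capitals mark the letters TGANTCA, a relaxed form of the AP-1 motif in which N is any base, and TATAAA, the TATA box.
Sprr2d, chr3:92338890-92339189, plus strand: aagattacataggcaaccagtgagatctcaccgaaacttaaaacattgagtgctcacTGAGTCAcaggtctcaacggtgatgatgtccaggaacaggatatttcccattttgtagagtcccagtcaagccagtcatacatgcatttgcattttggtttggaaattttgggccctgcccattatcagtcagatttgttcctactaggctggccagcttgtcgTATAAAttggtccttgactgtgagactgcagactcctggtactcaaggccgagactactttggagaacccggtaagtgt
Sprr2f, chr3:92364937-92365236, plus strand: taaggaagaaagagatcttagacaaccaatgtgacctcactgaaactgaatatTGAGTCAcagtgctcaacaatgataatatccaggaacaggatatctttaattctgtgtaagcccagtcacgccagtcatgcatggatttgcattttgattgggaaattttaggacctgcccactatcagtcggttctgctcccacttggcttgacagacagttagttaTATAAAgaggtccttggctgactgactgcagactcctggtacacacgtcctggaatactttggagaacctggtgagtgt
Sprr2h, chr3:92385435-92385734, plus strand: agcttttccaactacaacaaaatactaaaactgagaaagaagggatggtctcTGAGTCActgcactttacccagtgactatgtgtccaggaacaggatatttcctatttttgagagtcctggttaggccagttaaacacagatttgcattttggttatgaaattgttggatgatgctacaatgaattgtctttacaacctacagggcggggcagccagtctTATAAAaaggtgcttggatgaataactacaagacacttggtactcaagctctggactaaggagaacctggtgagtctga
Sprr1b, chr3:92438730-92439029, minus strand: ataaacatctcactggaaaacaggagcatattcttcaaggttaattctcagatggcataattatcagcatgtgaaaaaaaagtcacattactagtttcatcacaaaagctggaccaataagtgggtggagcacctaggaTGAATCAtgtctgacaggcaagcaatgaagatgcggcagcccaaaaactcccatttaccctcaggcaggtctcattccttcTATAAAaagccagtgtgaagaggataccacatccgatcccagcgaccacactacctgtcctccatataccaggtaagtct
The AP-1 letters began 193, 197 and 198 bases before the start in Sprr2d, Sprr2f and Sprr2h and 111 bases before it in Sprr1b, and the TATA box 29 bases before it in the 3 Sprr2 genes and 30 in Sprr1b. The AP-1 letters read TGAGTCA in the 3 Sprr2 genes and TGAATCA in Sprr1b, so the match in Sprr1b is not the same stretch. Sprr2d and Sprr2f were identical at 73.3% of aligned positions and Sprr2d and Sprr1b at 53.1%. Over all windows, 7.81% hold the AP-1 letters with any middle base and 13.6% the TATA box on either strand. The match was also in the windows of tested genes that did not pass, Sprr1a (0.82, adjusted p = 0.365), Sprr2i (−0.46, adjusted p = 0.12) and Sprr2k (−0.97, adjusted p = 0.124), of which the last 2 were looked up after their family had been seen to fall. The window of Sprr2a1, which did not pass either (−1.85, adjusted p = 0.317), held neither set of letters. A match of letters is no evidence that a factor binds there.

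**Figure D2:**
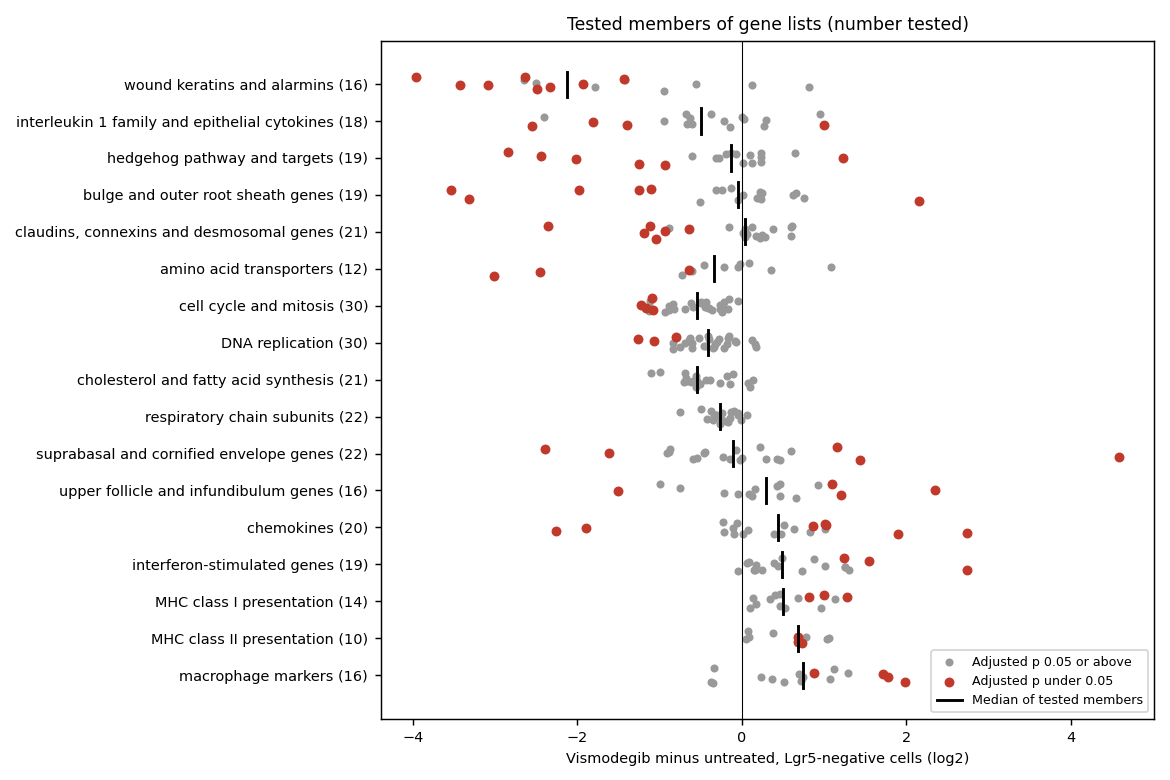
Change with vismodegib in Lgr5-negative cells (log2, x axis) for each tested member of 17 gene lists, with red points for members at an adjusted p under 0.05, grey points for the others and a black bar at the list median. The wound keratins and alarmins lie furthest left, with a median of −2.13, and the macrophage markers furthest right, with a median of 0.74.

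Several epithelial inflammatory mediators fell too. Ptgs2, the inducible cyclooxygenase, stood at 5.45 and 5.34 with vismodegib and at 7.77 and 8.11 without (−2.55 ± 0.19, adjusted p = 0.00166). Il1f6, which encodes the epidermal cytokine IL-36 alpha, stood at 5.82 and 5.75 against 7.37 and 7.82 (−1.81 ± 0.16, adjusted p = 0.00304). Il18, a cytokine released by the inflammasome, stood at 4.65 and 4.95 against 6.24 and 6.16 (−1.40 ± 0.14, adjusted p = 0.00341). These 3 decreases passed under every alternative, and treated levels lay under the array median. The decoy receptor Il1r2 rose (1.00 ± 0.13, adjusted p = 0.0102), so that the list of 18 had 1 higher and 3 lower members and a median of −0.49. The IL-36 gamma gene Il1f9 was lower without passing (−2.41 ± 0.54, adjusted p = 0.061). Among 13 EGF ligands and ErbB receptors, epiregulin (Ereg) stood at 3.90 and 3.80 against 5.84 and 5.96 (−2.05 ± 0.11, adjusted p = 0.00055) and the heparin-binding ligand Hbegf fell slightly (−0.70 ± 0.14, adjusted p = 0.0471). Averaging its probe sets ended the Hbegf call. Ereg lay above the 4.85 set for dim genes only in the untreated Lgr5-negative arrays, and Il18 would not have been tested without those arrays.

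Of 20 chemokines 5 rose (1.26% over all genes), 2 fell (2.06% over all genes) and 13 did not pass, with a median of 0.44. Those that fell are known as neutrophil attractants: Cxcl1 stood at 6.01 and 5.74 with vismodegib and at 8.09 and 8.18 without (−2.26 ± 0.20, adjusted p = 0.00304), and Cxcl2 at 5.21 and 5.42 against 7.02 and 7.39 (−1.89 ± 0.36, adjusted p = 0.0391). Among those that rose, Cxcl9, which interferon gamma induces, stood at 8.17 and 7.61 against 5.31 and 4.98, 6.68-fold higher (2.74 ± 0.31, adjusted p = 0.00615). Ccl27a, the keratinocyte chemokine for skin T cells, stood at 11.21 and 10.96 against 9.24 and 9.13 (1.90 ± 0.36, adjusted p = 0.0387), though its probe sets ranged from 0.12 to 1.90 and their mean gave 0.85. Ccl5 (1.01 ± 0.15), the monocyte attractant Ccl2 (1.02 ± 0.17) and Cxcl12 (0.87 ± 0.16) rose by less. Without untreated array 2 only 1 of the 7 passed, and Cxcl1 was the one that passed under every alternative.

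Interferon and antigen presentation genes were mostly higher, few past the threshold, while 7329 of all 14403 genes lay above 0. Of 19 interferon-stimulated genes 18 lay above 0 and 3 rose, with a median of 0.49. Besides Cxcl9, these were Irf9, the DNA-binding subunit of the type I interferon complex ISGF3, at 8.92 and 9.43 against 8.06 and 7.80 (1.24 ± 0.18, adjusted p = 0.0173), and the interferon-induced GTPase Igtp at 8.45 and 7.93 against 6.68 and 6.59 (1.55 ± 0.28, adjusted p = 0.0349). Of 14 MHC class I presentation genes all lay above 0 and 3 rose: the transactivator Nlrc5 (1.28 ± 0.20), the peptide-loading chaperone tapasin (Tapbp, 1.00 ± 0.20) and the non-classical class I gene H2-T23 (0.82 ± 0.15). Of 10 class II genes, H2-Ab1 (0.73 ± 0.13), H2-DMb1 (0.69 ± 0.13) and H2-DMa (0.69 ± 0.14) rose, and the median was 0.69. The shares that rose stand against 1.26% of all genes. Without untreated array 2 none of the 3 interferon calls passed, without vismodegib array 2 none of the class I calls and without vismodegib array 1 none of the class II calls, and H2-T23, H2-Ab1 and H2-DMa lost their calls on averaging probe sets.

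The promoter windows of Igtp and H2-T23 are shown because they hold the interferon-stimulated response element (GAAA, any 2 letters, GAAA), which ISGF3 binds, found in 3.44% of all windows on either strand. Capitals mark those letters and, in Igtp, the letters TTCNNNGAA of the gamma-activated site, found in 8.3% of windows, again from RefSeq on GRCm38.p6.
Igtp, chr11:58199306-58199605, plus strand: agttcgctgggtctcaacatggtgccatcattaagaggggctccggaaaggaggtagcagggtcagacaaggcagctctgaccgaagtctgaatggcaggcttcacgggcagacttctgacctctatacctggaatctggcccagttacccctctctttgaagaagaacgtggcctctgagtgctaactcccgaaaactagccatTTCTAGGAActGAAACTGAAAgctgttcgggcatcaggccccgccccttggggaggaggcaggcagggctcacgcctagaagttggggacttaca
H2-T23, chr17:36032652-36032951, minus strand: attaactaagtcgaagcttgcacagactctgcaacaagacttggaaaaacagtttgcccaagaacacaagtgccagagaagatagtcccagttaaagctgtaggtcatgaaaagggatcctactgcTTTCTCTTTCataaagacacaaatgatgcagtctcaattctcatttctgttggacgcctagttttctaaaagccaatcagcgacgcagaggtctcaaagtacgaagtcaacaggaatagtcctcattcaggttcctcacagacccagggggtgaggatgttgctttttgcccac
In Igtp the response element began 34 bases before the start and the gamma-activated site 45 bases before it, without overlap. In H2-T23 the response element lay on the opposite strand, 124 bases before the start. No match to it was found in the windows of Cxcl9, Irf9 or Tapbp.

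Some markers of macrophages rose in treated cells. The complement genes that macrophages make in bulk rose, namely C1qa (8.18 and 7.72 against 6.08 and 6.36, 1.72 ± 0.19), C1qb (8.50 and 8.91 against 6.58 and 6.85, 1.99 ± 0.17) and C1qc (7.67 and 7.85 against 5.77 and 6.19, 1.78 ± 0.17). With the lipopolysaccharide co-receptor Cd14 (0.88 ± 0.14), 4 of 16 tested markers rose, against 1.26% of all genes, and none fell, with a median of 0.74. The list's mean level was 7.25 and 7.23 in the vismodegib arrays, against 6.31 and 6.66 in the untreated arrays. Lysozyme (Lyz2) stood at 8.39 and 8.45 against 6.78 and 7.48 (1.29 ± 0.38, adjusted p = 0.12), and cathepsin S (Ctss) at 10.53 and 10.08 against 9.41 and 9.77, so that signal of these genes was present in untreated mice too. The macrophage markers Adgre1 (5.06 and 5.55 against 4.68 and 4.91), Mrc1 (5.18 and 5.33 against 5.02 and 6.19) and Pf4 (4.82 and 4.68 against 4.68 and 5.50) lay at or below about the array median in both groups and did not pass. The part of these cells in the chemokine, interferon and MHC changes was not tested. Without untreated array 1, 3 of the 4 passed.

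Markers of other cell types gave few calls, which does not say whether those cells were present. With limma none of 15 T and NK cell, 10 Langerhans and dendritic cell, 5 B cell, 8 melanocyte, 6 Merkel cell, 5 Schwann cell, 8 sebocyte and adipocyte, 8 skeletal muscle and 3 erythroid markers passed, and at an unadjusted p under 0.05 the numbers were 3, 2, 2, 2, 0, 0, 2, 0 and 0. The Langerhans and dendritic cell list averaged 7.88 and 7.56 with vismodegib, against 7.31 and 7.36 untreated, and the invariant chain Cd74 stood at 10.24 and 9.91 against 8.76 and 9.27 (1.06 ± 0.33, adjusted p = 0.145). The pan-leukocyte gene Ptprc stood at 7.34 and 6.31 against 5.39 and 5.84 (1.21 ± 0.39, adjusted p = 0.153), and the T cell receptor chain Cd3e at 5.33 and 4.93 against 5.64 and 6.12 (−0.75 ± 0.21, adjusted p = 0.113). Among 7 dermal fibroblast markers the surface protease Dpp4 fell (5.82 and 5.62 against 8.12 and 7.50, −2.09 ± 0.20), though its other probe set gave −0.04 and their mean −1.06, while Col1a2 (5.23 and 5.25 against 5.01 and 5.04) and Pdgfrb (6.39 and 6.38 against 6.26 and 6.35) did not pass. Of 11 endothelial and pericyte markers only Notch3, which keratinocytes also express, rose.

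**Figure D3:**
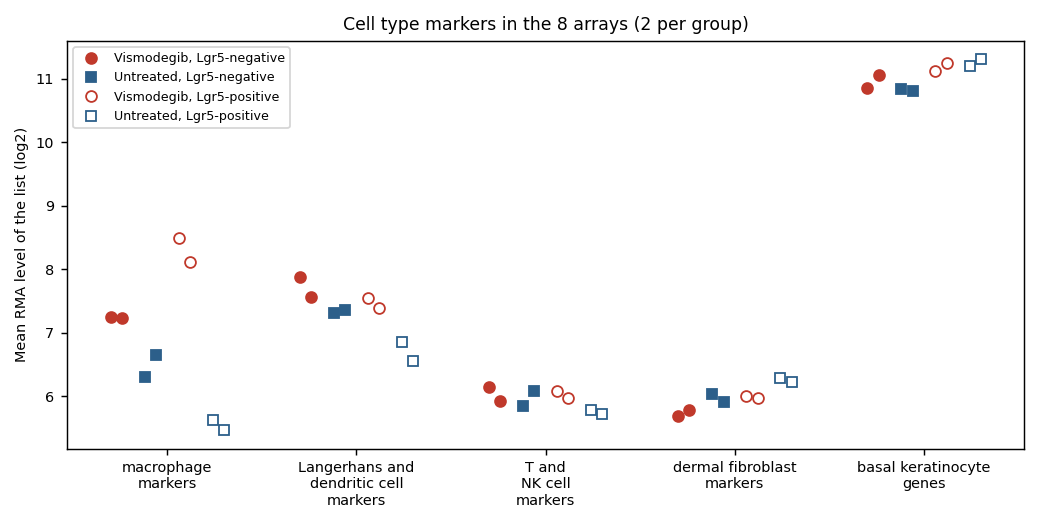
Mean RMA level (log2, y axis) of 5 marker lists in each array, with red circles for vismodegib, blue squares for untreated, filled symbols for Lgr5-negative and open symbols for Lgr5-positive cells. Macrophage markers stand at 7.25 and 7.23 in vismodegib and 6.31 and 6.66 in untreated Lgr5-negative arrays, and at 8.49 and 8.12 in vismodegib and 5.63 and 5.47 in untreated Lgr5-positive arrays.

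Differentiation genes moved both ways. Of 22 suprabasal and cornified envelope genes 3 rose, namely Krt77, the keratin Krt80 (9.14 and 9.05 against 7.82 and 7.50, 1.44 ± 0.13) and the calmodulin-like Calml3 (10.50 and 10.52 against 9.19 and 9.51, 1.16 ± 0.14). The 2 decreases were transglutaminases, which cross-link the envelope. Tgm3 stood at 7.28 and 7.58 against 9.94 and 9.71 (−2.39 ± 0.15, adjusted p = 0.00088), and Tgm5 fell by 1.61 on the log2 scale (adjusted p = 0.0186). Upper follicle and infundibulum genes had 3 higher and 1 lower of 16: Cst6, the transcription factor Gata6 (1.21 ± 0.16) and Fst rose, and the carbonyl reductase Cbr2 fell (−1.51 ± 0.24). Of 15 basal keratinocyte genes Krt15 alone changed. Keratinocyte transcription factors had 2 higher, Gata6 and Sox7 (1.18 ± 0.15), and 2 lower, Sox4 (−0.99 ± 0.12) and Sox13 (−1.71 ± 0.22), of 31. None of these 4 passed without untreated array 2, and without vismodegib array 2 only 1 of the 4 upper follicle calls did.

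Junction genes gave decreases alone, and matrix genes moved both ways. Of 21 claudins, connexins and desmosomal genes 6 fell, against 2.06% of all genes, and none rose, although 13 lay above 0 and the median was 0.04. Gjb2, which encodes connexin 26, stood at 8.27 and 7.85 with vismodegib and at 10.36 and 10.48 without (−2.36 ± 0.19, adjusted p = 0.00192). The connexins Gja1 (−0.93 ± 0.14), Gjb6 (−1.04 ± 0.17) and Gjb5 (−1.11 ± 0.22) and the claudins Cldn10 (−1.19 ± 0.17) and Cldn12 (−0.64 ± 0.12) fell as well. Basement membrane collagen chains moved both ways. Col4a1 stood at 8.88 and 8.72 against 10.84 and 10.28 (−1.76 ± 0.21, adjusted p = 0.00725) and its partner Col4a2 fell (−1.12 ± 0.23), while Col4a6 stood at 8.16 and 8.32 against 6.97 and 6.87 (1.32 ± 0.15, adjusted p = 0.00625). Col4a5 did not pass (0.86 ± 0.23, adjusted p = 0.0962). The Col4a2 call (adjusted p = 0.049) was lost without the filter, with array weights and with only the 4 Lgr5-negative arrays. The fibrillar Col5a2 fell (−1.44 ± 0.23) and Col16a1 rose (1.26 ± 0.22), so that 2 of 16 collagens rose and 3 fell, with a median of 0.06, Col27a1 not being on that list. Of 17 matricellular genes, Thbs2 rose (3.76 ± 0.53) and Sparc fell (−1.61 ± 0.24), and of 18 integrins and laminins none passed with limma, 5 having an unadjusted p under 0.05. Among proteases, cathepsin L (Ctsl, −1.14 ± 0.15), the gelatinase Mmp2 (−0.90 ± 0.16) and Adamts1 (−0.93 ± 0.18) fell and none of 21 rose. Among 20 protease inhibitors Serpina3n (−1.83 ± 0.27) and Csta1 (−1.75 ± 0.26) fell and Cst6 rose. Over all genes 2.06% fell and 1.26% rose. Without vismodegib array 1 only Gjb2 of the junction genes passed, without untreated array 2 only Col4a1 of the collagens, and without vismodegib array 2 none of the proteases and inhibitors. Averaging probe sets ended the calls of Ctsl (−0.72) and Cldn12 (−0.41) and brought Col5a2 to −0.85.

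Most proliferation genes lay below 0, where 7074 of all 14403 genes lay, and most did not pass. The counts of those that fell stand against 2.06% of all genes. All 30 cell cycle genes lay below 0, with a median of −0.54, and 4 of them fell: the transcription factor Mybl2 (6.62 and 6.96 against 7.92 and 7.99, −1.16 ± 0.15), the mitotic entry gene Cdca3 (−1.23 ± 0.17), cyclin B2 (Ccnb2, −1.08 ± 0.21) and the kinesin Kif23 (−1.09 ± 0.22), whose other probe set gave −0.01 and whose call was lost on averaging them. Of 30 DNA replication genes 27 lay below 0 (median −0.41), and Gins1 (−1.26 ± 0.21), the ribonucleotide reductase subunit Rrm2 (−1.07 ± 0.19) and Mcm10 (−0.80 ± 0.16) fell. The mitotic kinase Cdk1 did not pass (9.17 and 8.55 against 9.58 and 9.91, −0.88 ± 0.21, adjusted p = 0.0727). The cell cycle list averaged 7.92 and 7.60 in the treated arrays, against 8.22 and 8.56 in the untreated arrays. Without untreated array 2 none of the 4 cell cycle genes passed, and without vismodegib array 2 none of the 3 replication genes did. Of 18 cyclin-dependent kinase inhibitors and D cyclins, Ccnd2 alone changed, and the growth regulator Myc was higher without passing (1.12, adjusted p = 0.0623).

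The metabolic and stress gene lists given here held at most 3 calls each, to be set against 1.26% of all genes higher and 2.06% lower. With limma none of 21 cholesterol and fatty acid synthesis genes passed, although 18 lay below 0, the median was −0.54 and 11 had an unadjusted p under 0.05, as did 2699 of all 14403 genes. Examples are lanosterol synthase (Lss, −1.10 ± 0.28, adjusted p = 0.0807) and the decarboxylase Mvd (−0.70 ± 0.16, adjusted p = 0.0649). Of 22 respiratory chain subunits none passed and 3 had an unadjusted p under 0.05, a smaller share than among all genes, while 21 lay below 0 at a median of −0.26. Amino acid transporters had 3 lower and none higher of 12, namely Slc7a2 (6.54 and 5.64 against 9.14 and 9.06), Slc38a4 (−2.45 ± 0.46) and Slc7a1 (−0.64 ± 0.13). Heat shock genes had 3 higher and none lower of 18, the chaperones Hsph1 (1.04 ± 0.12), Hspb1 (0.78 ± 0.14) and Hspa1b (0.71 ± 0.15). Glutathione transferases moved apart, with Gstm1 higher (1.03 ± 0.11, from a probe set that can bind related transcripts) and Gsta4 lower (−2.03 ± 0.34). The hypoxia-responsive kinase Pdk1 fell (−0.99 ± 0.21) and was the 1 call of 20 glycolysis and hypoxia genes (median −0.04), a call that was lost on averaging its probe sets. Without untreated array 1 none of the heat shock calls passed and 1 of the transporter calls did, and without untreated array 2 neither transferase passed.

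The Lgr5-positive cells of the same mice, with 2 vismodegib and 2 untreated arrays, show which of these changes differed between populations. There 1566 genes passed, or 10.9% of those tested (6.37% higher and 4.51% lower), and 113 genes rose and 108 fell in both populations. The difference between the 2 drug effects passed for 202 genes (1.4%, with 0.41% more positive and 0.993% more negative in Lgr5-negative cells), of which 68 were among the 478. Each population has its own control arrays, but those arrays come from the same mice. The fit without vismodegib Lgr5-positive array 1 made 2 such calls and that without untreated Lgr5-negative array 2 made 8, so single differences rest on few arrays.

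The difference passed for 4 of 16 wound genes and 4 of 18 interleukin 1 family and cytokine genes, against 1.4% of all genes. These counts include Sprr2f and Il18, which owed their testing to the untreated Lgr5-negative arrays, so they are given as counts alone. Sprr2d changed by −3.96 ± 0.41 in Lgr5-negative and by −0.42 ± 0.41 in Lgr5-positive cells (difference −3.55 ± 0.59, adjusted p = 0.0393), Krt16 by −1.93 ± 0.17 and 0.49 ± 0.17 (difference adjusted p = 0.0112) and Tgm3 by −2.39 ± 0.15 and 0.40 ± 0.15 (difference adjusted p = 0.00951). Ptgs2, Ereg, Il1f6, Il18, Cxcl1, Sprr2f, Sprr2h and Dpp4 followed the same pattern, with differences between −3.07 and −1.68. Levels in both populations show the pattern. Tgm3 stood at 9.94 and 9.71 in untreated Lgr5-negative cells, and at 6.95 and 7.11 with vismodegib and 6.64 and 6.62 without in Lgr5-positive cells. Ereg stood at 3.89 and 3.81 with vismodegib and at 3.94 and 3.92 without in Lgr5-positive cells. Ereg and Sprr2f lay above 4.85, the level set for testing, only in the untreated Lgr5-negative arrays. They were thus tested through those arrays alone, and Il18 would not have been tested without them. The pattern of these genes is therefore no support. For the other genes high values were seen in the untreated Lgr5-negative arrays. By mean level the treated Lgr5-negative arrays lay nearer to both Lgr5-positive groups than to those arrays. Cxcl1 still lay lower in treated Lgr5-negative cells, at 6.01 and 5.74, than in untreated Lgr5-positive cells, at 6.67 and 7.26. For S100a8 (−2.04 ± 0.91, adjusted p = 0.298), S100a9 (−2.16 ± 0.72, adjusted p = 0.187) and Sprr1b (−2.34 ± 0.52, adjusted p = 0.0812) the difference did not pass.

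**Figure D4:**
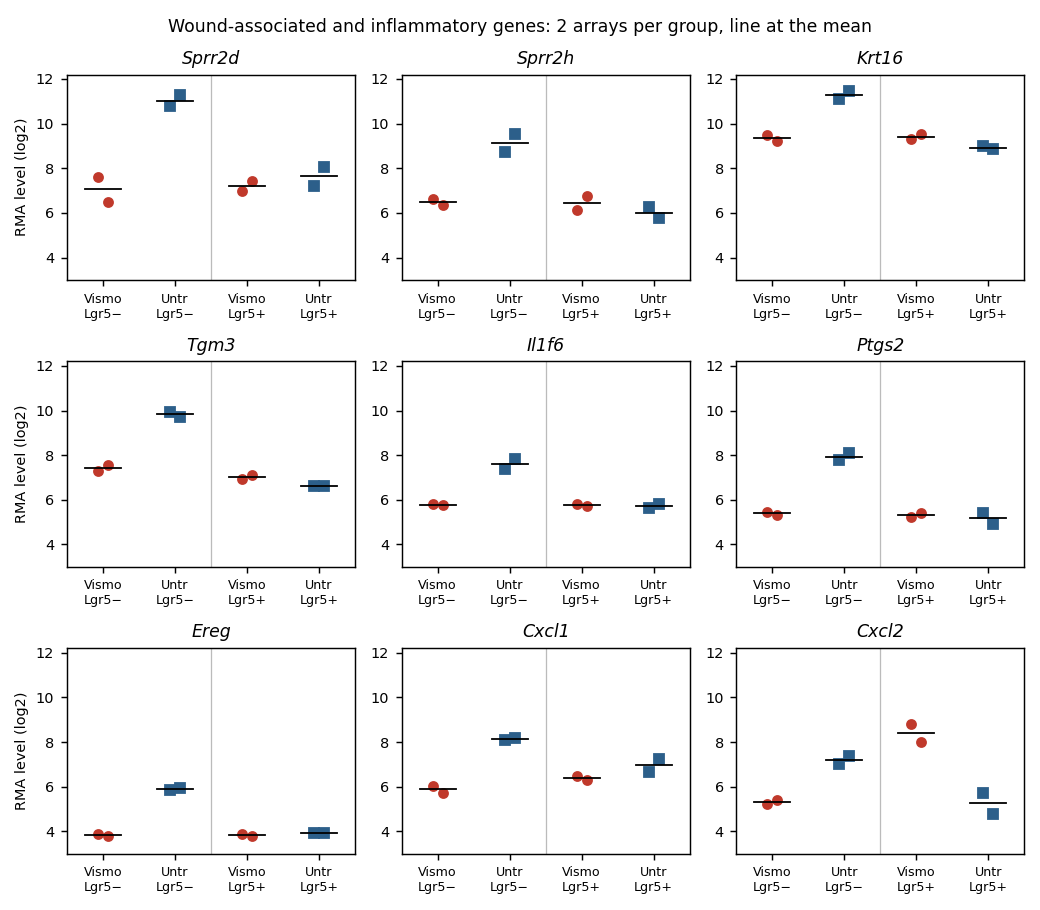
RMA levels (log2, y axis) of 9 genes in the vismodegib (Vismo, red circles) and untreated (Untr, blue squares) arrays of Lgr5-negative and Lgr5-positive cells, with a line at the mean of 2 arrays. In 8 of the genes the untreated Lgr5-negative arrays are the highest of the 4 groups, and Cxcl2 is highest in the vismodegib Lgr5-positive arrays, at 8.81 and 7.98. Ereg lies above the testing level of 4.85 only in the untreated Lgr5-negative arrays.

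Effects ran in opposite directions in 20 genes that passed in both populations. The difference passed for all 20, which adds no support, since opposite effects add up in it. Of the 20 genes, 19 fell in Lgr5-negative and rose in Lgr5-positive cells. Cxcl2 fell by 1.89 on the log2 scale and rose by 3.14 ± 0.36 in Lgr5-positive cells, the largest gap of the 20 (difference −5.03 ± 0.51, adjusted p = 0.0112). Robo1 stood at 9.41 and 9.21 against 10.40 and 10.49 in Lgr5-negative cells, and at 9.12 and 9.38 against 7.38 and 6.74 in Lgr5-positive cells. Treated levels of Robo1 were thus alike in the 2 populations while untreated ones were far apart. Mmp2 showed the same crossing (−0.90 ± 0.16 in Lgr5-negative and 0.97 ± 0.16 in Lgr5-positive cells), as did Inhba. Cxcl12 was the 1 gene that rose in Lgr5-negative (0.87 ± 0.16) and fell in Lgr5-positive cells (−1.09 ± 0.16). A further 29 genes passed in Lgr5-negative but not in Lgr5-positive cells with a difference that passed, 24 of them lower and 5 higher in Lgr5-negative cells, and Krt15 was among the 5, at 11.44 and 11.85 against 11.12 and 11.34 in Lgr5-positive cells.

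Some genes fell less in Lgr5-negative cells. Spry4 changed by −1.28 ± 0.15 in Lgr5-negative and −3.31 ± 0.15 in Lgr5-positive cells, Sox13 by −1.71 ± 0.22 and −3.84 ± 0.22 and Cldn10 by −1.19 ± 0.17 and −3.66 ± 0.17, and each difference passed (adjusted p = 0.0142, 0.0272 and 0.0112). Gli1 (difference 1.08, adjusted p = 0.0814), Ptch1 (0.30 ± 0.31, adjusted p = 0.659) and Krt77 (0.04 ± 0.58, adjusted p = 0.979) did not pass for a difference. Lgr5 fell by more in Lgr5-negative cells (difference −2.06 ± 0.35, adjusted p = 0.0413), but the sort selected on its reporter. Of 21 immediate early genes none passed in Lgr5-negative cells, with 5 at an unadjusted p under 0.05. In Lgr5-positive cells 10 of them fell, against 4.51% of all genes, and the difference passed for 1. Macrophage markers rose further in Lgr5-positive cells, 14 of 16 against 4 of 16, where 6.37% and 1.26% of all genes rose. The difference passed for 7, against 1.4% of all genes, among them Lyz2 (1.29 ± 0.38 in Lgr5-negative and 6.73 ± 0.38 in Lgr5-positive cells), Ctss and C1qb.

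**Figure D5:**
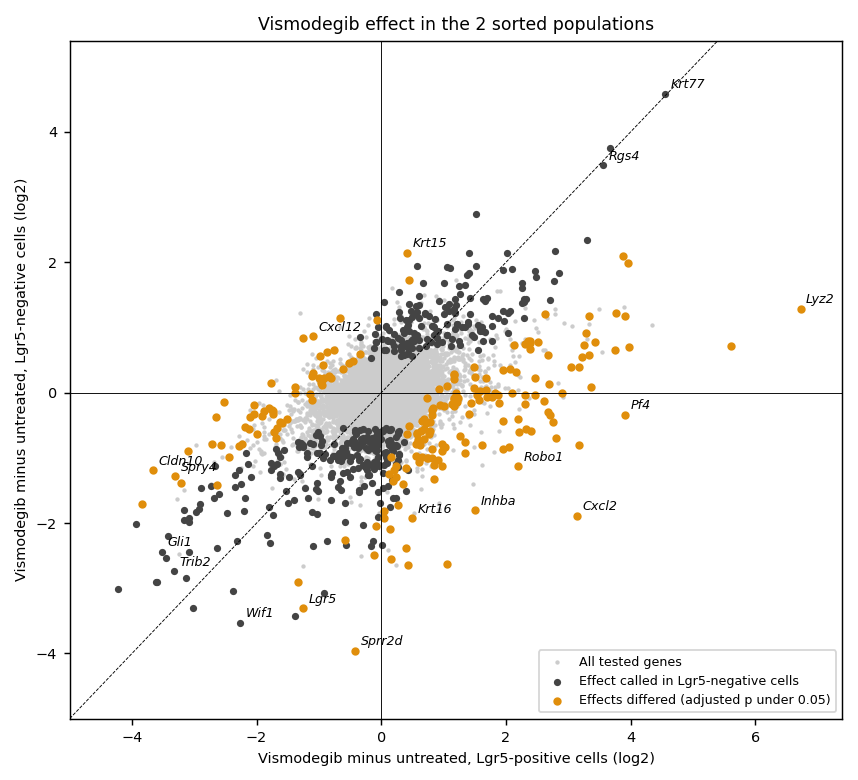
Change with vismodegib (log2) in Lgr5-negative cells (y axis) against that in Lgr5-positive cells (x axis) for 14403 genes, with dark points for genes called in Lgr5-negative cells, orange points for the 202 whose effects differed and a dashed line where both effects are equal. Krt77 and Rgs4 lie near that line, Sprr2d and Krt16 lie low near zero on the x axis, and Cxcl2, Inhba and Robo1 lie in the lower right.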

How the data were processed

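RNA was measured on Affymetrix mouse arrays from amplified cDNA of sorted cells. The authors deposited log2 values made with RMA (version not stated), per the submitters' processing notes, and these were used as deposited. Of 45141 probe sets, 104 were controls, 28898 named 1 gene, 551 several and 15588 none. Each of 17097 genes was read from its brightest probe set by mean level, and genes above 4.85, the 25th percentile, in at least 2 arrays were tested. The number of arrays limits the precision.

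All 8 arrays entered a single limma model (version 3.58.1, under R 4.3.3) with a mean for each of the 4 groups. The moderated two-sided test had 4 residual plus 3.53 prior degrees of freedom, and the Benjamini-Hochberg adjustment ran over 14403 genes. In a simulation of the Lgr5-negative comparison over 14403 genes, 91% of 2-fold and 100% of 4-fold changes were recovered, with 3 false calls of 194. Whether these shares hold for the measured genes was not tested. Among measured genes, 10 increases and 37 decreases of at least 4-fold passed with limma. Others changed by more than 4-fold without passing, for example Il1f9 (−2.41 ± 0.54, adjusted p = 0.061) and Krt6b (−2.50 ± 0.65, adjusted p = 0.0902).

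Named genes were Lgr5, Lrig1, Ptch1 and Gli1, the 15 largest increases and decreases past the threshold without overlap, 8 each way for the difference, and per list up to 6 members that passed and 3 that did not. Genes named from the Sprr family and as markers of other cell types were chosen after their values were seen. The members and the 53 lists were chosen with earlier results of these data known. Of 943 listed genes 853 were on the array and 786 were tested.

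Arrays of the same mouse, paired across populations by the mouse number in the titles, had deviations that correlated at 0.211 (vismodegib) and 0.142 (untreated). Mice of the same number in different treatments are different animals, and their deviations correlated at −0.107. The alternatives were other filters and probe set rules, cyclic loess, priors, weights, blocks, a fold of at least 2, only the 4 Lgr5-negative arrays and leaving out each array.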

Additional observations from a re-analysis of the deposited data

Results flagged for a closer look

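The vismodegib effect differed between Lgr5-negative and Lgr5-positive cells for 202 genes by the limma test of the difference, and the named ones follow, each as the log2 effect in Lgr5-negative cells minus that in Lgr5-positive cells. The difference was most negative for macrophage and chemokine genes. It was −5.44 for Lyz2, which is read by a probe set that can bind related transcripts, −5.03 for Cxcl2, −4.91 for Ctss and −4.26 for Pf4. For C1qb it was −1.97, for Hpgds −1.79 and for the class II gene H2-Ab1 −1.40.

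Wound and inflammatory genes also had negative differences. They were −3.55 for Sprr2d, −3.07 for Sprr2h, −2.36 for Sprr2f, −2.79 for Tgm3 and −2.42 for Krt16. Among mediators they were −2.70 for Ptgs2, −1.97 for Ereg, −1.85 for Il1f6, −1.75 for Il18 and −1.68 for Cxcl1. Sprr2f, Ereg and Il18 owed their testing to the untreated Lgr5-negative arrays, where they were high, so their differences are no support. For tissue factor (F3) the difference was −3.68, for Dpp4 −2.23 and for Aldh1a3 −1.57.

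Genes with opposite or unlike effects were the magnesium transporter family member Nipal1 (−3.98), the serine protease Prss23 (−3.51, from a probe set that can bind related transcripts), Robo1 (−3.32), Inhba (−3.30) and Mmp2 (−1.87). The differences of Sox7 (−2.15), Lgr5 (−2.06), Mybl2 (−1.55) and Tnfrsf19 (−1.42) were negative as well.

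Positive differences were those of Cldn10 (2.47), Tbx1 (2.39), Myrip (2.28), Adamtsl1 (2.21), Sox13 (2.14), Aff3 (2.09), Spry4 (2.03), Cxcl12 (1.96) and Krt15 (1.73). Of these, Cxcl12 and Krt15 rose in Lgr5-negative cells, while Tbx1 stood at 7.18 and 7.12 with vismodegib and at 7.34 and 7.25 without.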

How the results depend on the processing

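The count of 478 drug effect calls lay between 357 and 576 genes under the filters, mean of probe sets, cyclic loess, priors, weights and mouse blocks tried. With every probe set tested on its own, 676 of 23551 probe sets passed, which is not a count of genes. It was 262 with a fold of at least 2 and 234 in a fit of only the 4 Lgr5-negative arrays. Leaving out 1 array gave between 65 and 523 calls, where the lone array is assumed to vary like the other groups: 65 without untreated Lgr5-negative array 2, 137 without untreated array 1, 257 without vismodegib array 2 and 272 without either vismodegib Lgr5-positive array, which enter only through the spread. The 202 differences gave between 148 and 300 calls under the other alternatives and between 2 and 251 on leaving out 1 array: 2 and 79 without vismodegib Lgr5-positive arrays 1 and 2, 8 and 66 without untreated Lgr5-negative arrays 2 and 1, and 109 without vismodegib Lgr5-negative array 2. None of the named effects and differences that passed changed sign under any alternative, and some that did not pass crossed 0.

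With the mouse number as a replicate block, 357 effects and 148 differences passed, and 20 of 116 named effects were lost. The mouse as a block gave 300 differences and ended 2 of 44 named ones. A crossed pairing of the mouse numbers, added after the data were seen, gave 576 effects and 237 differences. Of the 116 named effects 33 passed under every alternative, while 80 were lost without untreated Lgr5-negative array 2. None of the 44 named differences passed under every alternative. Cyclic loess moved the median effect by −0.02. At an unadjusted p under 0.05, 2699 genes differed in the Lgr5-negative cells.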
